A study of Mus musculus with 89 samples.

Results

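Osteopontin (Spp1) and arginase 1 (Arg1) were followed as 2 genes among the 19962 targets of a mouse whole-transcriptome panel, across 89 tissue segments of mouse squamous cell carcinoma. They were taken by name, as genes known from tumour-conditioned myeloid cells and detected in part of the segments. The choice was made with earlier results of these data known. The panel (GeoMx) hybridises oligonucleotide tags to RNA on a tissue section, and ultraviolet light releases the tags of each chosen region for sequencing. Regions of fresh frozen sections were chosen by their look on immunofluorescence images, and every segment carries the label neutrophil. The deposited annotation places the segments in 7 classes of stage and location: 15 in naive stroma, 13 in naive interface, 14 in naive within tumour, 9 in acute stroma, 2 in acute interface, 14 in relapse stroma and 22 in relapse interface. The series concerns response to and relapse from immunotherapy; the agents, doses, times, ages, strain and number of animals are not given in the sources used here. Since every stage has a slide of its own, an effect of stage and an effect of slide cannot be told apart. The annotation calls the relapse slide treated in its slide name, and its scan name gives another tumour model than the scan name of the naive slide. Segments share slides, and which share an animal is not named, so p-values over segments are too small.

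Spp1 encodes a secreted phosphoprotein that binds integrins and CD44, and macrophages of tumours and of scarred or lipid-loaded tissue are a known source. Arg1 encodes a cytosolic enzyme that splits arginine into ornithine and urea, which withdraws arginine from T cells and feeds polyamine synthesis. It is a classic gene of alternatively activated macrophages in the mouse, and neutrophils and hepatocytes are other known sources. The RefSeq annotation of GRCm38.p6 places the protein-coding gene Spp1 at chr5:104435111-104441053 and the protein-coding gene Arg1 at chr10:24915207-24927470. The tags do not tell a segment with fewer expressing cells from a segment with less RNA per cell.

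The deposited values are tag counts divided by a factor of each segment, and they were multiplied back to counts here. No value was below 1 count, which is called the floor, and 69.1% of all target values lay on it. Depth is the sum of counts above the floor, with a median of 7216 and a range from 573 to 208675. The limit of quantitation of a segment, set from its negative-control probes and never under 2 counts, ran from 2 to 17.3 counts. Of 14 neutrophil markers, S100a8 exceeded the limit in 44 of 89 segments and S100a9 in 38, whereas Ly6g did so in 6 and Ltf in 0. Of 14 macrophage markers, Csf1r exceeded it in 24 segments, C1qa in 23 and Cd68 in 12. Thus 2 of the 14 neutrophil markers and 11 of the 14 macrophage markers were above the limit in at least 10% of segments.

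Spp1 was the more abundant of the pair and the more uneven. Its counts above the floor summed to 297 over the 89 segments, 3.29 times the mean of the panel and more than 98.3% of targets. It lay above the floor in 29 segments and above the limit of quantitation in 13. The highest segment held 25.9% of all its counts and the highest 3 held 56.9%. For comparison, the median tested target had 12.3% of its counts in its highest segment, and 99.3% of the 5087 tested targets had a smaller share there than Spp1. Arg1 summed to 91 counts, 1.01 times the panel mean, and more than 76.3% of targets. It lay above the floor in 31 segments and above the limit in 11, with no count over 10. The Arg1 count was below the geometric mean of the negative probes in 57 of 89 segments, and the Spp1 count in 59. Most values of both genes are therefore bounds and not levels.

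**Figure D1:**
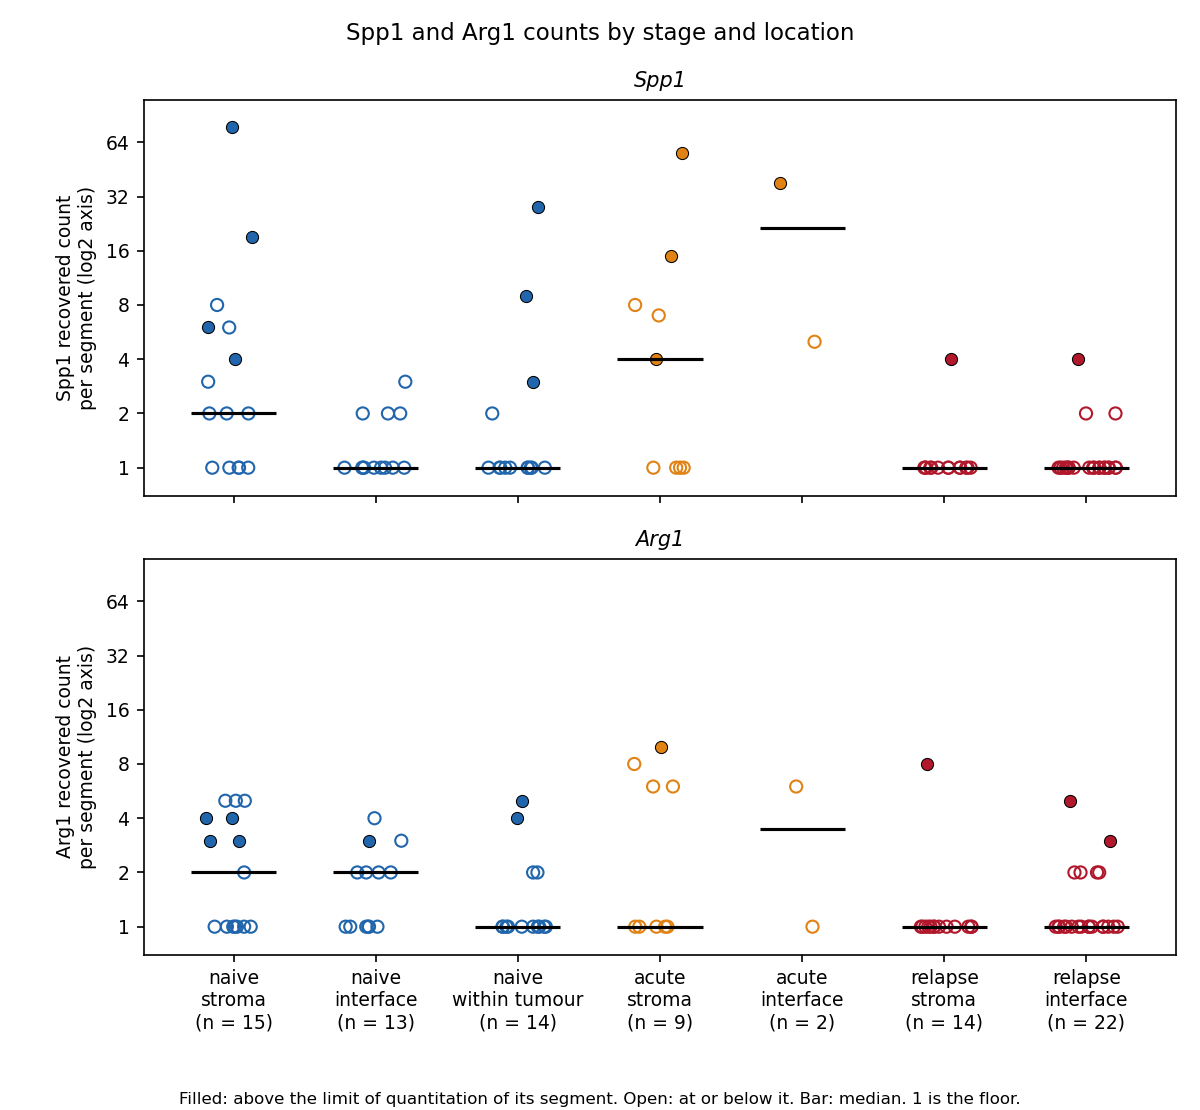
Recovered counts of Spp1 (upper) and Arg1 (lower) in each of 89 segments by class, on a log2 axis; filled points are above the limit of quantitation of their segment, open points are not, bars are medians and 1 count is the floor. Spp1 reaches 78 counts in naive stroma and 56 in acute stroma, no naive interface segment is above its limit, and Arg1 does not pass 10 counts in any class.

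Spp1 reached its highest counts in single segments of the naive and acute slides. In naive stroma the counts ran from 1 through a median of 2 to 78, and 4 of 15 segments were above the limit. In acute stroma they ran from 1 through 4 to 56, with 3 of 9 above the limit. The 2 acute interface segments held 5 and 38 counts, and 1 was above the limit. Within the naive tumour the counts ran from 1 through 1 to 28, with 3 of 14 above the limit. These 4 classes overlapped, because all but acute interface included segments at the floor.

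The remaining classes were low. Naive interface counts ran from 1 through 1 to 3, and 0 of 13 segments were above the limit (exact 95% interval to 24.7%). In relapse stroma 13 of 14 segments were at the floor and 1 held 4 counts. In relapse interface 19 of 22 were at the floor, with a highest count of 4. The relapse segments were also shallow: their median depth was 3964 in stroma and 3570 in interface, against 10736 in naive stroma and 64652 in acute stroma. The part of depth in these detection rates was not tested.

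Levels per 10000 counts above the floor divide by depth but do not remove it: Spearman's rho of the Spp1 level with depth was 0.46. Pooled over the segments of a class, Spp1 stood at 4.07 in acute interface, 3.16 within the naive tumour, 2.73 in naive stroma, 1.32 in acute stroma, 0.492 in relapse interface, 0.350 in relapse stroma and 0.160 in naive interface. The spread between segments was larger than these distances in most classes: the mean was 6.78 ± 23.4 (SD, n = 15) in naive stroma, 7.88 ± 26.7 (SD, n = 14) within the naive tumour and 0.810 ± 1.03 (SD, n = 9) in acute stroma. The mean was 4.07 ± 4.64 (SD, n = 2) in acute interface, 0.126 ± 0.204 (SD, n = 13) in naive interface, 0.221 ± 0.828 (SD, n = 14) in relapse stroma and 0.894 ± 3.51 (SD, n = 22) in relapse interface. Without its highest segment, pooled naive stroma fell from 2.73 to 0.997 and the naive tumour from 3.16 to 1.28, and the other acute interface segment stood at 0.794. In acute stroma it went from 1.32 to 0.691, in relapse interface from 0.492 to 0.201 and in relapse stroma from 0.350 to 0. In naive interface it went from 0.160 to 0.120. The order of the classes therefore depends on single segments.

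Rank tests were used for the order, since they do not weigh how high 1 segment is. Over the 21 pairs of classes and both genes, 0 of 42 exact two-sided rank-sum tests passed after Benjamini-Hochberg adjustment, and 10 had an unadjusted p under 0.05, 8 of them for Spp1. No neighbours in the order of pooled Spp1 levels thus passed this test, which does not show that they are equal. Of the neighbours acute stroma and relapse interface, 69.7% of segment pairs were higher in acute stroma (exact permutation p = 0.022, adjusted 0.11, n = 9 and 22). The smallest value was for Spp1 in relapse stroma against naive stroma, where 22.1% of segment pairs were higher in relapse (exact permutation p = 0.0026, adjusted 0.068, n = 14 and 15). Naive stroma against relapse interface came next, with 74.1% of pairs higher in naive stroma (exact p = 0.0032, adjusted 0.068, n = 15 and 22). In naive interface against naive stroma, 22.3% of pairs were higher at the interface (exact p = 0.0069, adjusted 0.096, n = 13 and 15).

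Detection was compared next. Above the limit, the share of segments with Spp1 was 50% in acute interface, 33.3% in acute stroma, 26.7% in naive stroma, 21.4% within the naive tumour, 7.14% in relapse stroma, 4.55% in relapse interface and 0% in naive interface, which is another order than that of the pooled levels. Fisher's exact test on segments above the limit passed for 0 of 16 tests, and the lowest p of these was 0.10, for Spp1 in naive interface against naive stroma (adjusted 0.89). With any count above the floor in place of the limit, Spp1 was detected in 1 of 14 relapse stroma segments and 10 of 15 naive stroma segments (Fisher's exact p = 0.0017, adjusted over 16 tests 0.027). Arg1 in the same pair was detected in 1 of 14 and 8 of 15 (Fisher's exact p = 0.014, adjusted 0.098). The median depth was 3964 in relapse stroma and 10736 in naive stroma. Counts above the floor were more frequent in deeper segments, and the part of depth in these results was not tested.

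**Figure D2:**
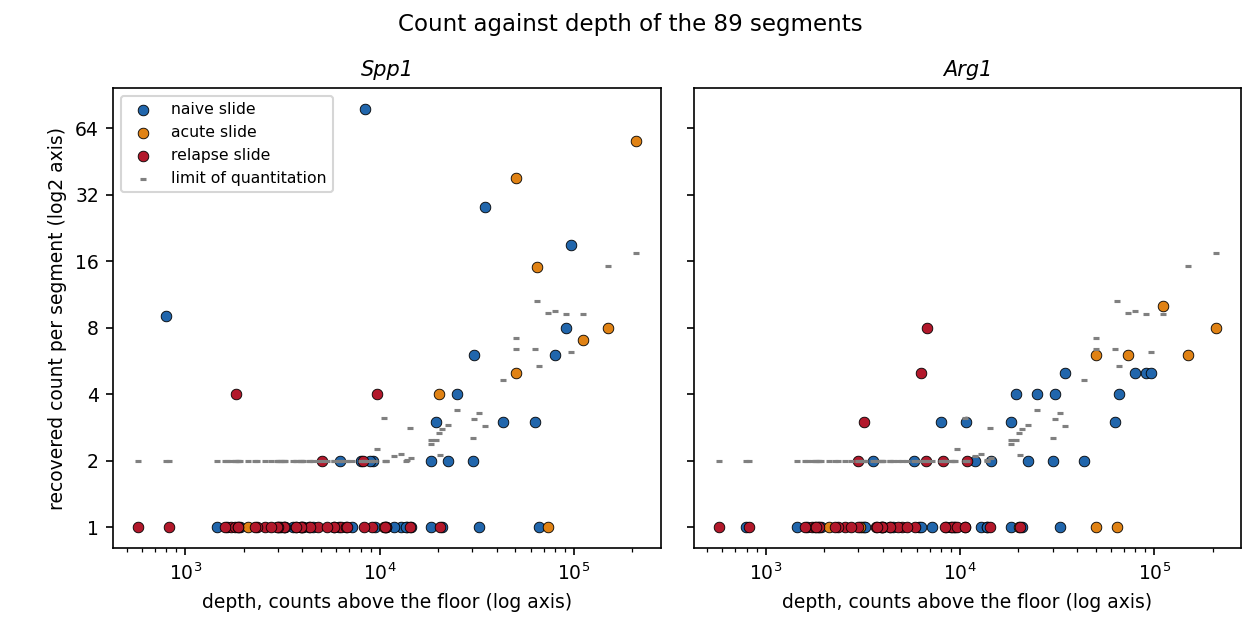
Recovered count of Spp1 (left) and Arg1 (right) against the depth of each of 89 segments, both axes logarithmic, coloured by slide, with each segment's limit of quantitation as a grey dash. Arg1 stays at or below 10 counts at every depth, whereas a naive stroma segment of depth 8445 holds 78 Spp1 counts.

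Both genes were seen more often where segments were deeper. Of the 17 segments with a depth of at least 30000, 82.4% had an Spp1 count above the floor and 82.4% an Arg1 count. Of the 18 segments under 3000, the shares were 11.1% and 5.56%. Across the 89 segments, Spearman's rho of count with depth was 0.55 for Spp1 and 0.58 for Arg1, as a description of segments that share slides. The pooled Arg1 level was 0.303 per 10000 in segments under 3000, 0.927 per 10000 in segments of 3000 to 10000, 0.484 in those of 10000 to 30000 and 0.447 in deeper ones, and Spearman's rho of the Arg1 level with depth was 0.43.

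The segments with the highest Spp1 counts lay on the naive and acute slides. Naive stroma segment 7 held 78 counts of a depth of 8445, which is 91.2 per 10000 (exact 95% interval 72 to 114, counting error only), and Spp1 was the 5th highest target there. Naive within tumour segment 8 held 9 counts of a depth of only 796 from 6 nuclei, which is 100.5 per 10000 (43.5 to 197), and Spp1 ranked 6th. Acute interface segment 1 held 38 counts, 7.35 per 10000, and naive within tumour segment 13 held 28 counts, 7.76 per 10000. Acute stroma segment 7, the deepest of all, held 56 counts but 2.64 per 10000. Of the 5 segments with the highest counts, 3 were also among the 5 with the highest levels.

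Regions were joined into 14 tissue pieces by the distance between them, because the annotation names none. In naive piece 5 the 4 stroma segments pooled to 32.9 Spp1 counts per 10000, but 77 of the 78 counts above the floor were those of segment 7, and the other 3 pooled to 0.654. Naive piece 3, with 6 stroma segments, pooled to 0.749 and naive piece 4, with 2, to 0.311. In naive piece 1 the 3 stroma segments all lay above the floor, at 6 to 19 counts. In the relapse slide, 0 of 9 stroma and 0 of 7 interface segments of piece 3 were above the floor. For Arg1, the 4 stroma segments of naive piece 5 were all at the floor, including the segment with 78 Spp1 counts. Their median depth was 5824.5. In the same piece, a within-tumour segment held 5 Arg1 counts beside 28 Spp1 counts.

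**Figure D3:**
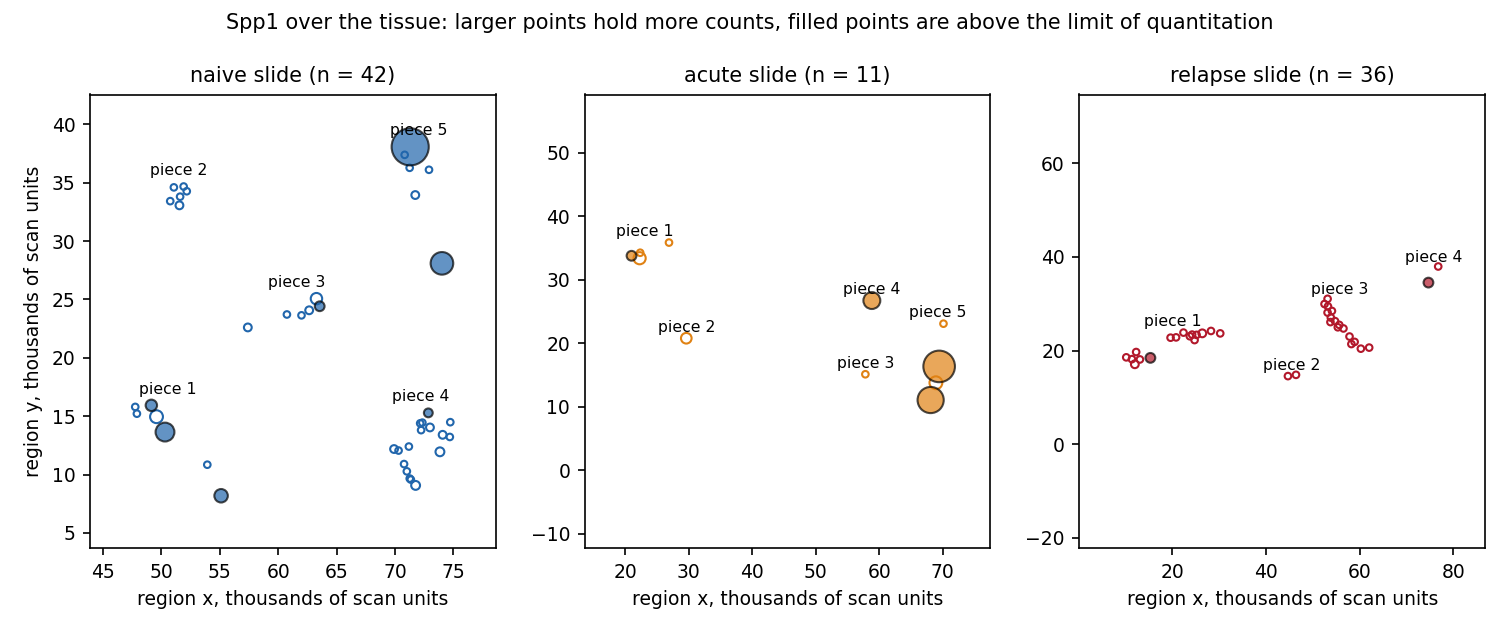
Position of the regions on the naive, acute and relapse slides in scan units, with point area growing with the Spp1 count and filled points above the limit of quantitation. The largest points lie in naive piece 5, with 78 and 28 counts, and in acute piece 5, with 56 and 38, while the relapse slide has 2 filled points of 4 counts each.

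Arg1 was low in every class. In naive stroma its counts ran from 1 through a median of 2 to 5 (4 of 15 above the limit), in naive interface from 1 through 2 to 4 (1 of 13) and within the naive tumour from 1 through 1 to 5 (2 of 14). In acute stroma they ran from 1 through 1 to 10 (1 of 9), and the 2 acute interface segments held 1 and 6 (0 of 2). In relapse stroma 13 of 14 segments were at the floor and 1 held 8 counts. In relapse interface they ran from 1 through 1 to 5 (2 of 22). All classes overlapped.

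The order of pooled Arg1 levels differed from that of Spp1. It was 0.985 per 10000 in relapse interface, 0.816 in relapse stroma, 0.747 within the naive tumour, 0.523 in naive stroma, 0.496 in acute interface, 0.404 in acute stroma and 0.353 in naive interface. No neighbours in this order passed the rank-sum test, and the exact intervals of the highest class (0.472 to 1.81) and the lowest (0.176 to 0.631) overlapped. Without its highest segment the relapse interface level went from 0.985 to 0.630 and the acute interface level from 0.496 to 0. The level in relapse stroma came from segment 8 alone, with 8 counts of a depth of 6793, or 10.3 per 10000 (4.14 to 21.2). That segment also had the highest summed macrophage markers of its class, 72.1 per 10000, and no Spp1 count above the floor.

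Both genes were above the floor in more segments than Spp1 alone or Arg1 alone, but in fewer than these together. Above the limit of quantitation, both were found in fewer segments than either gene alone. Both lay above the floor in 18 segments, Spp1 alone in 11, Arg1 alone in 13 and neither in 47. Above the limit of quantitation, both were found in 4 segments, Spp1 alone in 9 and Arg1 alone in 7. Spearman's rho of their levels was 0.26 over the 89 segments, and detection of each gene was more frequent in deeper segments.

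Comparisons between classes were then made with limma on log2(signal + 1), with 1 mean per class and log2 depth as a covariate, over the 5087 targets above the limit in at least 10% of segments. Spp1 was lower in naive interface than in naive stroma, the only comparison between locations of 1 stage in which it was called. The log2 mean was 1.66 ± 0.42 (SD, n = 13) at the interface and 2.88 ± 1.59 (SD, n = 15) in stroma, a fitted difference of -1.20 (SE 0.29, limma adjusted p = 0.0018). In this comparison 10.7% of tested targets were called, 518 of 546 of them lower, and a target at the floor throughout would differ by -0.10. On simulated counts without class differences, this fit made false calls in this comparison, nearly all of them lower, so its adjusted p-values are too small. With a curved depth term, which made fewer such calls, 361 targets were called and Spp1 differed by -1.14 (SE 0.29, limma adjusted p = 0.0049). The call was lost on counts per 10000 (-0.93, limma adjusted p = 0.25) and without naive piece 4 (-1.33, limma adjusted p = 0.081). Of the naive stroma segments, 6 lie in piece 3 and 4 in piece 5, which hold no interface segment. Of the naive interface segments, 8 lie in piece 4 and 4 in piece 2. Location and tissue piece can thus hardly be told apart here. Where a piece held both, pooled Spp1 in stroma and interface was 0.311 and 0.211 in piece 4 (2 and 8 segments). It was 1.37 and 0 in piece 1 (3 segments and 1).

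The difference of Spp1 between locations was set against the same difference at relapse. Relapse interface minus relapse stroma was 0.12 (SE 0.26, limma adjusted p = 0.999), where no target was called by limma and 122 had an unadjusted p under 0.05. The interaction, which is the relapse difference minus the naive one, was 1.32 (SE 0.39, limma adjusted p = 0.036), in a comparison where 3.54% of tested targets were called. This call was lost under 10 of 25 alternatives, among them the curved depth term (1.16, limma adjusted p = 0.10) and tissue piece as a random block (1.16, limma adjusted p = 0.12). In relapse 32 of 36 segments were at the Spp1 floor, so a difference there could hardly be measured.

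No other Spp1 comparison and no Arg1 comparison passed. Within the naive tumour Spp1 differed from stroma by -0.34 (SE 0.30; 4.05% of targets called) and from the interface by 0.86 (SE 0.31, limma adjusted p = 0.46, with 0 targets called and 369 at an unadjusted p under 0.05). Relapse stroma minus naive stroma was -0.74 for Spp1 (SE 0.30, limma adjusted p = 0.32; 1.61% of targets called) and -0.05 for Arg1 (SE 0.22). Relapse stroma minus acute stroma was -0.31 for Spp1 (SE 0.36) and 0.31 for Arg1 (SE 0.26), with 0.983% of targets called. Acute stroma minus naive stroma was -0.42 for Spp1 (SE 0.33) and -0.37 for Arg1 (SE 0.24), with 0.118% of targets called. Naive interface minus naive stroma was -0.34 for Arg1 (SE 0.21, limma adjusted p = 0.32). Relapse interface minus naive interface was 0.47 for Arg1 (SE 0.22, limma adjusted p = 0.30; 1.45% of targets called) and 0.58 for Spp1 (SE 0.30, limma adjusted p = 0.36).

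**Figure D4:**
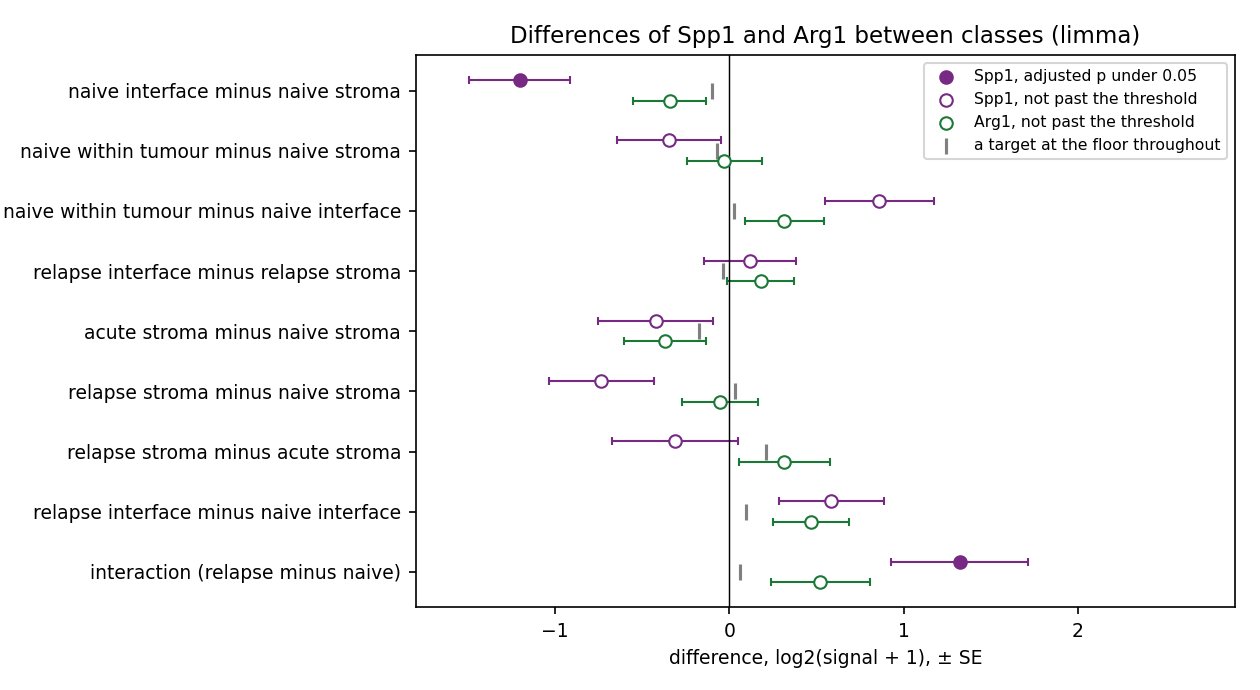
Differences of Spp1 (purple) and Arg1 (green) in 9 comparisons on the log2(signal + 1) scale, as the limma estimate with its SE; filled points have an adjusted p under 0.05 and grey ticks show a target at the floor throughout. Spp1 is filled at -1.20 for naive interface minus naive stroma and at 1.32 for the interaction, and no Arg1 point is filled.

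Cell type markers moved in the comparison that called Spp1. In naive interface minus naive stroma, 8 of 11 tested macrophage markers were called lower, against 10.2% of all tested targets, among them C1qa (-1.56), a complement subunit made by tissue macrophages, and Csf1r (-1.27), the receptor for macrophage colony-stimulating factor. Against the same 10.2%, all 8 tested fibroblast markers were called lower, among them the collagen gene Col3a1 (-3.22). The summed macrophage markers ran from 3.34 through a median of 21.02 to 59.2 per 10000 in naive stroma and from 3.82 through 5.82 to 61.4 at the interface. The summed fibroblast markers ran from 16.2 through 222 to 384 and from 7.93 through 15.3 to 351. Both interface maxima were those of the 1 interface segment of naive piece 1. The 2 stroma segments of naive piece 4 had macrophage sums of 9.92 and 3.34 and fibroblast sums of 16.2 and 19.1. Without naive piece 4, 67 targets were called in this comparison in place of 546. Of the neutrophil markers only S100a8 (0.10) and S100a9 (-0.32) could be tested, and neither was called. The part of these cell types in the Spp1 difference was not tested.

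The targets most like Spp1 across segments were genes known from lipid-handling and lysosome-rich macrophages. On log2(level + 1) over the 89 segments, the 5 tested targets with the highest Pearson r with Spp1 were Mmp12 (0.77), which encodes macrophage elastase, Gpnmb (0.75), a transmembrane glycoprotein of lysosome-rich cells, Ctsd (0.63), the lysosomal protease cathepsin D, Cd36 (0.61), a fatty acid and lipoprotein scavenger receptor, and Trem2 (0.61), a lipid-sensing receptor. At fixed depth the values ran from 0.61 to 0.77, so depth hardly moved them. Without the 2 segments farthest in Spp1 the same values were 0.49, 0.47, 0.40, 0.28 and 0.35. The segments share slides and depth, so these are descriptions. Gpnmb and Mmp12 were each above the limit in 8 of the 13 segments with Spp1 above it, and Ctsd in 11.

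Counts of these targets were uneven among the segments with high Spp1. Naive stroma segment 7 held 68 Gpnmb counts, 50 Ctsd counts and 23 Mmp12 counts beside its 78 Spp1 counts. Naive within tumour segment 8, shallow as it was, held 51 Mmp12 counts, 8 Ctsd counts and 5 Gpnmb counts. Acute stroma segment 7 held 71 Gpnmb, 70 Ctsd, 44 Mmp12 and 20 Trem2 counts. Acute interface segment 1 held 20 Gpnmb, 20 Ctsd and 7 Mmp12 counts. Naive within tumour segment 13 held 16 Mmp12 and 6 Ctsd counts with Gpnmb at the floor. Relapse interface segment 9, at 16.5 Spp1 counts per 10000, held 3 Mmp12, 3 Ctsd and 2 Gpnmb counts with Cd36 and Trem2 at the floor. These segments were chosen for their Spp1 values, and the counts are given as a description.

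**Figure D5:**
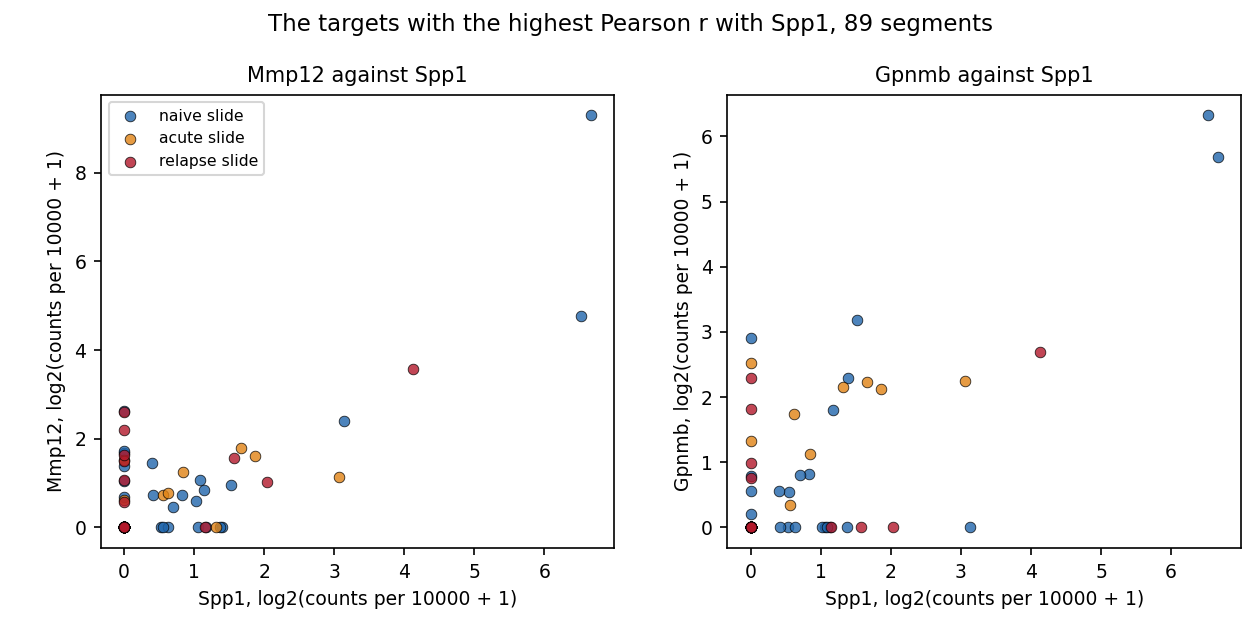
Mmp12 (left) and Gpnmb (right) against Spp1 in 89 segments, each as log2(counts per 10000 + 1), coloured by slide. The 2 naive segments at the upper right carry much of the relation, with Pearson r falling from 0.77 to 0.49 for Mmp12 and from 0.75 to 0.47 for Gpnmb without them.

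Arg1 had no such neighbours. Its 5 most alike targets were Rbmxl1 (0.50), Ctdsp2 (0.49), Cops7a (0.49), Tomm7 (0.49) and Msrb1 (0.47), and none of them belongs to the arginine, regulator or myeloid lists. Arg1 and Spp1 themselves had a Pearson r of -0.015 on the same scale. With segments of at least the median depth or with the deposited signal, 0 of these 5 remained among the 5 most alike to Arg1, whereas 3 and 4 of the 5 remained for Spp1.

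The receptors and proteases around osteopontin were mostly too low to test: 7 of the 16 listed genes passed the filter, Spp1 among them. In naive interface minus naive stroma, Spp1 and Mmp3 (-0.83, SE 0.25, limma adjusted p = 0.018), which encodes stromelysin 1, a protease that cleaves osteopontin, were called lower. The 7 had a median difference of -0.44, against -0.14 over all tested targets and 10.2% called lower. The receptor Cd44 differed by -0.44 (SE 0.20, limma adjusted p = 0.13), and summed to 97 counts over all segments. In the interaction, Spp1 was the only 1 of the 7 called. The integrin genes Itgb1, Itga5 and Itgb6 passed the filter and were not called in any of the 9 comparisons.

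Arginine and polyamine genes showed little difference between classes. Of 20 listed, 12 were tested, and Sat1, which encodes a polyamine acetyltransferase, was the only 1 called, lower in naive interface than in naive stroma (-0.68, SE 0.19, limma adjusted p = 0.0083). This 1 of 12 is near the 10.2% of all tested targets called lower there. Odc1, the enzyme that starts polyamine synthesis from ornithine, was well measured, above the limit in 49 segments, and was not called in any comparison. Arg2, the mitochondrial arginase, summed to 88 counts and was not called, with its largest difference 0.64 in relapse stroma minus acute stroma (SE 0.21, limma adjusted p = 0.13). Nos2, the inducible nitric oxide synthase that competes for arginine, summed to 84 counts and was above the limit in 7 segments, too few to test. Among 16 genes that regulate Arg1, 7 were tested and Il4ra, a receptor chain for interleukins 4 and 13, was the only 1 called, lower within the naive tumour than in naive stroma (-0.94, SE 0.23, limma adjusted p = 0.0045; 3.81% of all tested targets were called lower there).

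Genes of lipid-laden tumour macrophages were lower with Spp1 at the naive interface than in naive stroma. Most naive stroma segments came from tissue pieces that hold no interface segment. Of 15 tested, 10 were called lower than in naive stroma, against 10.2% of all tested targets, with a median of -0.91 against -0.14 over all: Apoe (-3.97), Ctsd (-1.62), Ctsb (-1.32), Cd63 (-1.31), Ctsl (-1.17), Gpnmb (-1.15), Fn1 (-0.99), Ctsz (-0.91), Tyrobp (-0.82) and Trem2 (-0.59). Apoe encodes a lipid carrier, Ctsb, Ctsl and Ctsz are lysosomal proteases, Cd63 marks late endosomes, Fn1 encodes fibronectin and Tyrobp is the signalling adaptor of Trem2. With the curved depth term 8 of 15 were called lower, against 6.64% of all tested targets; Trem2 (-0.51, limma adjusted p = 0.12) and Ctsl (-0.99, limma adjusted p = 0.052) were not. In the interaction 3 of 15 were called higher, against 3.5% of all tested targets, Apoe (3.61), Ctsd (1.78) and Cd63 (1.39), and Apoe alone with the curved term.

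Some of these genes were also called where Spp1 was not. Within the naive tumour, 5 of 15 were called lower than in naive stroma (3.81% of all tested targets were), among them Apoe (-3.77) and Cd63 (-1.31), where Spp1 differed by -0.34. In relapse stroma, Apoe (-2.75) and Cd63 (-1.38) were called lower than in naive stroma, as were 1.32% of tested targets. Naive and relapse segments were collected on different plates, and with plate as a covariate only 2 targets were called in that comparison, neither Apoe (-2.05, limma adjusted p = 0.72) nor Cd63 (-0.49, limma adjusted p = 0.93) among them. Fabp5, a fatty acid carrier of keratinocytes as well as macrophages, was higher in relapse than acute stroma (1.75; 0.865% of targets called higher) and in relapse than naive interface (1.92; 1.42%). In these comparisons 5 and 7 keratinocyte markers, Krt16 among them, were called higher too. With plate as a covariate Fabp5 was called in neither (2.002, limma adjusted p = 0.066, and 2.44, limma adjusted p = 0.45), and the calls in relapse minus naive interface went from 74 to 4, with Krt16 still among them.

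Of 6 tested suppressive myeloid genes, only Clec4n, a fungal-sensing lectin of myeloid cells, was called. It was lower than in naive stroma at the naive interface (-0.80; 10.2% of all tested targets called lower), within the naive tumour (-0.92; 3.81%) and in relapse stroma (-0.87; 1.32%), and higher in the interaction (0.85; 3.5% called higher). The relapse call was lost with plate as a covariate (-0.33, limma adjusted p = 0.93), and the interaction was not (0.86, limma adjusted p = 0.044). Naive and relapse segments each lay on a single plate, so a plate term could hardly change a difference between locations. With the curved depth term, 0 of these 6 genes were called higher in the interaction.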

How the data were processed

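The deposited matrix holds signal that the authors normalised by an upper-quartile factor per segment; that factor is a ratio in the deposited annotation, per the file headers, and nuclei are given there as a count. The submitters' processing notes name mm10 and Seurat; aligner, counter and the origin of the floor are not given in the sources used here. Signal times factor gave whole counts for 99.986% of values (tolerance 1e-06). Depth, level per 10000 and the limit of quantitation (the larger of 2 and the negative-probe geometric mean times the geometric SD to the power 2) were computed from these counts. By the plate letter in the segment names, all naive segments were on 1 collection plate and all relapse segments on another. limma 3.58.1 in R 4.3.3 tested log2(signal + 1) over 5087 targets with Benjamini-Hochberg adjustment at 0.05; rank-sum and Fisher tests were exact (scipy 1.17.1). Tissue pieces are regions with gaps of at most 7000 scan units. The limma fit was tested on simulated data without class differences: it made false calls in naive interface minus naive stroma and in acute minus naive stroma, and a curved depth term (a natural spline), added for this reason after seeing the data, made fewer in the former and more in the latter. The members and gene lists were chosen with earlier results of these data known. Named genes were the members, every pathway gene past the threshold, macrophage and neutrophil markers, the 5 targets with the highest Pearson r with each member, and Arg2, Nos2 and Cd44. No tag sequences were used here.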

Additional observations from a re-analysis of the deposited data

Results flagged for a closer look

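In acute stroma, 1 segment stood apart from the other 8 in its Spp1 count: 56 counts, against 15 in the next and 1 in the lowest. It is the deepest segment of the series, and its level of 2.64 per 10000 was not apart from the next, 2.17. This gap test flags about 1 group in 20 by chance where values are normally distributed. Floored counts from segments of unlike depth are not, so its rate here is not known.

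The Spp1 difference between interface and stroma differed between the relapse and naive slides, by 1.32 on the log2 scale (limma interaction, adjusted p = 0.036). Stage, slide, the tumour model given in the scan names and, for these slides, collection plate cannot be told apart. The call was lost under 10 of 25 alternatives.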

How the results depend on the processing

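Spp1 in naive interface minus naive stroma stayed called in 24 of 26 alternatives (-1.49 to -0.85) and was lost on counts per 10000 (-0.93) and without naive piece 4 (-1.33). Many of the 26 leave out only acute or relapse segments and keep both compared classes whole, so they could hardly change this call. The Spp1 interaction was lost with counts per 10000 (1.10), the curved depth term (1.16), no filter (1.32), a pseudocount of 2 (1.14), tissue piece as a block (1.16), and without naive piece 2 (1.30), 4 (1.47) or 5 (0.95) or relapse piece 1 (1.07) or 3 (1.27). Arg1 was called in relapse minus naive interface with no depth covariate (0.57); on simulated data without class differences that fit made many false calls in this comparison. No limma value that was called changed sign.

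Rank-sum tests past the threshold, 0 of 42 here, were 5 with the deposited signal, 1 with the floor count kept, 1 with counts over the negative probes, 2 without acute piece 2, 2 without acute piece 5, 4 without naive piece 5, 1 without relapse piece 4, and 2 without either acute interface segment. With the deposited signal, which carries the floor divided by the factor, 3 results reversed: the share of pairs higher in relapse than naive interface was 85.1% for Spp1 and 79.2% for Arg1, and higher in naive interface than relapse stroma 18.4% for Spp1. Detection above the floor gave 1 call of 16 in place of 0. Of the 5 targets most alike, 3 were kept for Spp1 and 0 for Arg1 at or above the median depth, and 0 for Arg1 with the deposited signal.

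Counts of called targets ranged over the alternatives from 42 to 768 in naive interface minus naive stroma and from 3 to 241 in the interaction. With plate as a covariate, estimated from acute stroma alone, they went from 82 to 2 in relapse minus naive stroma, from 74 to 4 in relapse minus naive interface and from 6 to 0 in acute minus naive stroma. Over all alternatives these counts ran from 2 to 107, 4 to 497 and 0 to 54; those of relapse minus acute stroma ran from 9 to 83 and those of naive within tumour minus stroma from 62 to 244. Tests on recovered counts with a count model were not run, because the matrix column holds segments with different factors, so its low values are not multiples of 1 step, although each segment's values times its own factor are whole; the filter at 20% of segments removed both genes. Pieces come from region coordinates, chosen after seeing the data. The labels give no replicate numbers that segments of different classes share, and no paired analysis was run. Some tissue pieces hold segments of several classes, and tissue piece as a random block is given above.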
